A study of Homo sapiens with 2 samples.

Results

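The miR-23a/27a/24-2 and miR-23b/27b/24-1 clusters are sets of neighbouring hairpins from which 8 mature miRNAs were followed here in exosomes, small vesicles released by cells. The 8 formed a chosen list, which left out 3 other miRNAs of the same hairpins. All 8 names stood in the scanner output of both arrays, and these members were 8 of the 2549 human miRNAs measured. They comprised the 3p arms hsa-miR-23a-3p, hsa-miR-23b-3p, hsa-miR-27a-3p, hsa-miR-27b-3p and hsa-miR-24-3p and the 5p arms hsa-miR-23a-5p, hsa-miR-27a-5p and hsa-miR-24-2-5p, written below without the prefix for human. The exosomes came from FaDu, a squamous carcinoma line of the human hypopharynx, and 200 ng of RNA was labelled for each one-colour Agilent array. The NC-labelled array (oe-NC) held RNA from cells given an NC plasmid lentivirus, and the HOTTIP-labelled array (oe-HOTTIP) RNA from cells given a plasmid lentivirus for overexpression of HOTTIP, a long noncoding RNA. Apart from that construct the labels give both cultures the same cell line and treatment, and the methods describe the construct as a plasmid delivered by lipid transfection. There was 1 array per group, so no difference has a replicate check and no p-value was computed. The deposited description of each array contradicts its title and treatment by naming the opposite group. Groups follow title and treatment here, so all directions below would reverse if the descriptions held instead.

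The clusters are transcribed as long precursors that are cut into hairpins, and each hairpin gives a 3p and a 5p strand. For these hairpins the 3p strand is the one usually loaded into Argonaute, and the 5p strand is usually degraded. A loaded miRNA finds messenger RNAs mainly through its seed and lowers their output. miR-23a and miR-23b are known as regulators of glutaminase downstream of c-Myc, miR-27 as a brake on lipid metabolism and fat cell formation, and miR-24 as a regulator of cell cycle genes. The clusters are expressed in many epithelial, endothelial and blood cells, so these miRNAs do not mark one cell type.

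The sequences of the 3p strands are shown because they set how far the array can tell the members apart. They are those of RefSeq on GRCh38.p14, and all 8 members were matched there by name. Capitals mark the seed, bases 2 to 8 from the 5′ end.
miR-23a-3p: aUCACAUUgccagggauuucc
miR-23b-3p: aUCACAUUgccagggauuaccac
miR-23c: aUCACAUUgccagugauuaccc
miR-27a-3p: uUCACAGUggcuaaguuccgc
miR-27b-3p: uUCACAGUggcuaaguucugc
miR-24-3p: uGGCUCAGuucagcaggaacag
miR-23a-3p and miR-23b-3p shared a seed and differed by 1 substitution over 21 compared bases, U19A, with the base of the first-named miRNA written first, positions counted from the 5′ end, and 2 further bases at the 3′ end of miR-23b-3p. miR-27a-3p and miR-27b-3p also differed by 1 substitution, C19U. miR-23c, which lies outside these clusters and has the seed of miR-23a-3p and miR-23b-3p, differed from miR-23a-3p by G14U and U19A. The seed of miR-27 differs from that of miR-23 by U7G. How far the probes separate such near-identical miRNAs was not tested, so the values of miR-23a-3p and miR-23b-3p, and those of miR-27a-3p and miR-27b-3p, may share signal.

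The 5p members are shown with miR-24-1-5p, which comes from the other cluster, and with the seed again in capitals.
miR-23a-5p: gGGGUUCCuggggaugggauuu
miR-27a-5p: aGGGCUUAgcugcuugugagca
miR-24-2-5p: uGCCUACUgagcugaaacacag
miR-24-1-5p: uGCCUACUgagcugauaucagu
miR-24-2-5p differed from miR-24-1-5p, its counterpart in the other cluster and no member here, by 6 substitutions over 22 bases, although both have the same seed. miR-23a-5p and miR-27a-5p were not compared with their counterparts. The members were 21 to 23 bases long.

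The first cluster lies on the minus strand of chromosome 19, in the order MIR23A, MIR27A, MIR24-2, at chr19:13836287-13836659 on GRCh38.p14. It spans 373 bases, with gaps of 69 and 80 bases between the hairpins, inside the long noncoding RNA gene MIR23AHG. The second lies on the plus strand of chromosome 9 at chr9:95085208-95086088, spans 881 bases with gaps of 140 and 479 bases, and overlaps AOPEP, which encodes an aminopeptidase. miR-24-3p is the same 22 bases in both clusters, as the hairpins show, in which capitals mark the 5p and then the 3p strand.
MIR24-2: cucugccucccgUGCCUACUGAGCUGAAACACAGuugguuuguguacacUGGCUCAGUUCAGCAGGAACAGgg
MIR24-1: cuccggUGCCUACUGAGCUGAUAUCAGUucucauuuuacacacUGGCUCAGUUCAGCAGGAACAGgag
A signal of miR-24-3p therefore cannot be given to chromosome 19 or chromosome 9, and among the strands of miR-24 only the 5p ones are particular to a locus.

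Signals were read as the background-subtracted intensity of each spot, averaged over the spots of a probe and then over the probes of a miRNA. To scale an array, its signals were divided by the 90th percentile of the 261 miRNAs that the scanner software marked as detected on both, which was 279.9 (NC-labelled) and 439 (HOTTIP-labelled). Differences are log2 of the HOTTIP-labelled over the NC-labelled value. For a miRNA, the SD is pooled over the spots within each probe of an array. The standard error (SE) and the spread over spots of a difference rest on the same within-probe variation. None of them includes the gap between probes, which can be wide, as for miR-23a-3p with probe means of 48.0 and 245 on the NC-labelled array. They measure technical error and do not stand for cultures, and a brightness cannot tell fewer cells or vesicles that carry a miRNA from fewer copies in each. The arrays share 1 slide and 1 scan. The HOTTIP-labelled array was brighter, with a median unscaled log2 difference of 0.67 over the 261 miRNAs. Each column of the normalized table that the authors deposited ranks the miRNAs like the scanner output of the opposite array.

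The 3p strands were detected in exosomes of both cultures and the 5p strands in neither. All 5 of the 3p members were marked as detected on both arrays, against 10.2% of the 2549 miRNAs on the array, and none of the 3 members of the 5p kind was detected on either. Over the whole array 7.09% of the 875 miRNAs named as 3p arms and 12.1% of the 860 named as 5p arms were detected on both. None of the 5 detected members differed by 2-fold in either direction, while 39.1% of the 261 miRNAs detected on both arrays did (21.1% lower and 18.0% higher on the HOTTIP-labelled array). The median log2 difference of the 5 was 0.0069, beside 0.024 for all 261, and their median absolute log2 difference was 0.078, beside 0.70. All 5 lay between the quartiles of the 261, which were -0.66 and 0.73.

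miR-23a-3p, the first miRNA of the chromosome 19 cluster, had an intensity of 146 ± 25.5 (SD, 20 spots) on the NC-labelled array and 231 ± 35.7 (SD, 20 spots) on the HOTTIP-labelled array. These were 52.3% and 52.5% of the 90th percentile of their arrays, and the log2 difference was 0.0069 with an SE of 0.075. The scaled levels differed by less than their error. Its probes gave -0.13 (SE 0.14) and 0.032 (SE 0.085), and for each probe the scaled spots of the arrays overlapped.

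miR-27a-3p, whose hairpin follows in the same cluster, had an intensity of 54.8 ± 16.0 (SD, 20 spots) on the NC-labelled array and 86.5 ± 14.0 (SD, 20 spots) on the HOTTIP-labelled array. The log2 difference was 0.0080 with an SE of 0.11, again close to 0, and the probes gave -0.068 (SE 0.13) and 0.026 (SE 0.13). The difference of miR-23a-3p minus that of miR-27a-3p was -0.0012 with an SE of 0.13. Such a value does not depend on the number by which an array is divided, and here it was far below the spread over spots of 0.59. It did move with other processing. Over 17 alternatives it ran from -0.14, in the authors' table with columns as named, to 0.20 under quantile normalization.

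miR-24-3p, made from both clusters, had an intensity of 55.3 ± 9.94 (SD, 19 spots) on the NC-labelled array and 101 ± 9.75 (SD, 19 spots) on the HOTTIP-labelled array. The log2 difference was 0.21 with an SE of 0.065 and a spread over spots of 0.29, a 1.16-fold higher scaled level on the HOTTIP-labelled array. Its probes gave 0.18 (SE 0.064) and 0.26 (SE 0.13). It was the 1 member of which the unscaled spots of each probe did not overlap between the arrays, from 55.8 to 75.1 against 99.2 to 131 for the first probe and from 22.3 to 57.0 against 74.2 to 92.7 for the second. After scaling they overlapped for both probes. The difference of miR-23a-3p lay 0.21 below that of miR-24-3p (SE 0.10), and that of miR-27a-3p lay 0.21 below it (SE 0.13). Under quantile normalization miR-23a-3p stood 0.0098 above miR-24-3p, and in the authors' table with its columns exchanged 0.0040 below it.

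The members encoded only on chromosome 9, miR-23b-3p and miR-27b-3p, were close to background, unlike miR-24-3p, which both clusters encode. miR-23b-3p had an intensity of 8.24 ± 2.12 (SD, 19 spots) on the NC-labelled array and 9.90 ± 2.60 (SD, 18 spots) on the HOTTIP-labelled array, where the negative control spots had 3.87 ± 2.37 (SD, 976 spots) and 3.45 ± 2.21 (SD, 975 spots). The log2 difference was -0.39 with an SE of 0.12 and a spread over spots of 0.53, which is the lowest of the 5 members. Only 1 of its 2 probes rose above background, with 8 of 10 spots marked well above it on the NC-labelled array and 9 of 10 on the HOTTIP-labelled array, and this probe gave -0.42 (SE 0.12). The other probe had 0 of 10 such spots on each array, with intensities of 2.01 and 2.86.

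miR-27b-3p, which shares its seed with miR-27a-3p, had an intensity of 9.16 ± 2.28 (SD, 18 spots) on the NC-labelled array and 13.6 ± 2.88 (SD, 19 spots) on the HOTTIP-labelled array, a log2 difference of -0.078 with an SE of 0.11. One probe again carried the signal, with 9 of 10 and 10 of 10 spots well above background, and gave -0.22 (SE 0.10). The other had none on either array, and its value of 0.63 had an SE of 0.48.

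**Figure D1:**
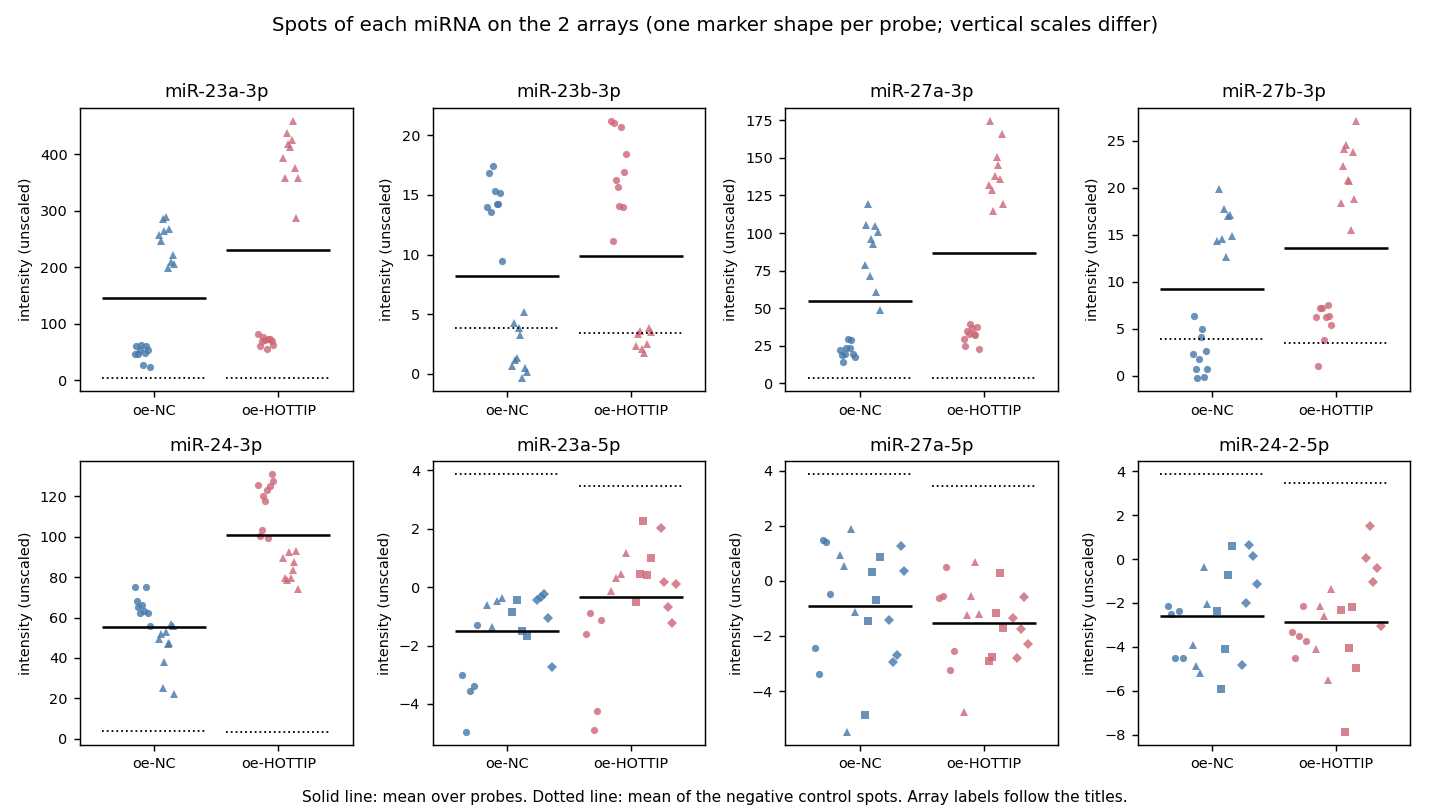
Background-subtracted, unscaled intensity (vertical axes, which differ between panels) of the spots of the 8 members on the NC-labelled array and the HOTTIP-labelled array, with 1 marker shape per probe, the mean over probes as a solid line and the mean of the negative control spots as a dotted line. The spots of miR-23a-3p, miR-27a-3p and miR-24-3p stand above the dotted line, 1 probe each of miR-23b-3p and miR-27b-3p lies around it, and the 5p members lie below it.

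Of the near-identical pairs, miR-23a-3p had a log2 difference 0.39 above that of miR-23b-3p, with an SE of 0.14 and a spread over spots of 0.63. miR-27a-3p stood 0.086 above miR-27b-3p, with an SE of 0.15, so that no order between them could be read. miR-23b-3p lay 0.31 below miR-27b-3p (SE 0.16), its neighbour in the cluster. These values rest on signals near background. When the mean of the negative control spots was subtracted from each array, an alternative chosen after the data were seen, miR-23b-3p moved to -0.098 and miR-27b-3p to 0.28, the pair of miR-23 to 0.11 and the pair of miR-27 to -0.24. Put in order of their log2 differences, the members ran from miR-23b-3p through miR-27b-3p, miR-23a-3p and miR-27a-3p to miR-24-3p. Neighbours compared in this order differed by less than their spread over spots.

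**Figure D2:**
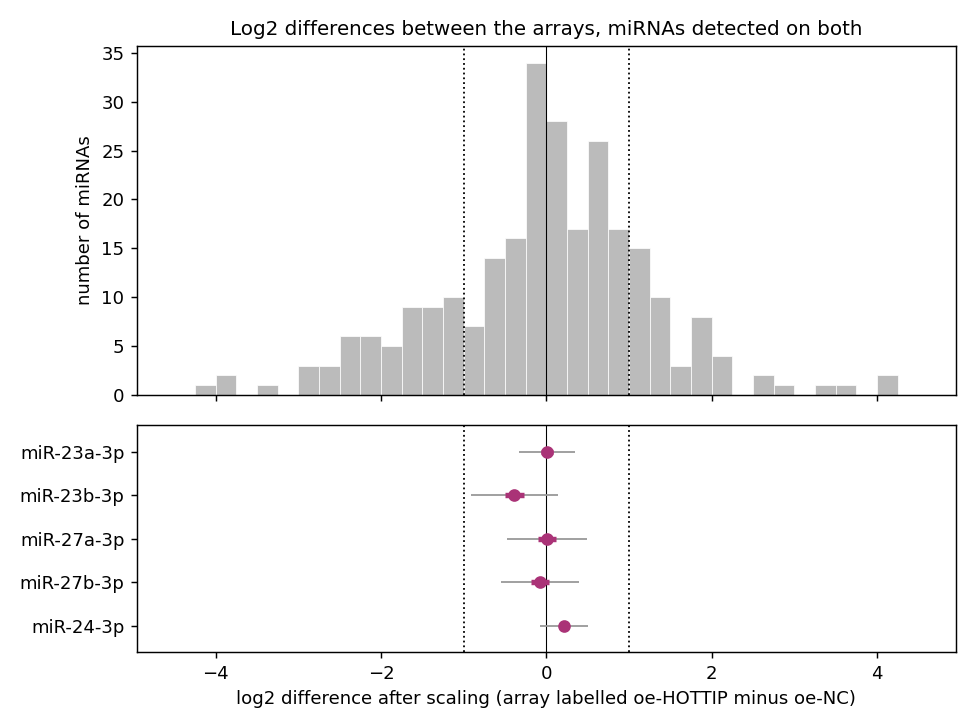
Upper panel, number of miRNAs (vertical axis) by scaled log2 difference, the HOTTIP-labelled array minus oe-NC (horizontal axis), for the 261 miRNAs detected on both arrays. Lower panel, the 5 detected members on the same axis, with thick bars for the SE and thin bars for the spread over spots. The dotted lines mark 2-fold, and the members run from -0.39 to 0.21, between those lines.

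The 5p strands gave no level. The spots of miR-23a-5p ran from -4.96 to -0.23 with a median of -1.18 on the NC-labelled array and from -4.89 to 2.26 with a median of 0.095 on the HOTTIP-labelled array. Those of miR-27a-5p ran from -5.48 to 1.87 with a median of -0.59 and from -4.74 to 0.70 with a median of -1.29. Those of miR-24-2-5p ran from -5.91 to 0.65 with a median of -2.38 and from -7.88 to 1.52 with a median of -2.82. All of these spots were dimmer than the mean negative control spot, and 0 of 20 spots of each miRNA were marked well above background on either array. No fold is given for them. The remaining 5p strands of the hairpins, miR-23b-5p, miR-27b-5p and miR-24-1-5p, were not detected on either array, so that 0 of the 6 strands of this kind were.

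miR-23c, encoded on the X chromosome, was marked as detected on the NC-labelled array only. It had an intensity of 7.48 ± 1.95 (SD, 19 spots) there, with 2 of 20 spots well above background, and 4.29 ± 1.32 (SD, 19 spots) on the HOTTIP-labelled array. Its scaled level was at least 2.74-fold lower on the HOTTIP-labelled array, taken against its own signal there, which was higher than the lowest detected one. With a higher floor, at which 50% of the miRNAs of similar brightness are detected, the bound was 1.82-fold. The bound was also under 2-fold without scaling (1.74-fold), with normexp with and without an offset of 50 (1.56-fold and 1.92-fold) and from the brightest probe (1.62-fold), and in the authors' table as its columns are named the bound was 2.86-fold in the other direction. The signals lie near background.

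The miRNAs closest in log2 difference to the median of the detected members were miR-107 at 0.0059, miR-331-3p at 0.011 and miR-361-5p at -0.0013. Likeness was the distance in log2 difference over the 2 arrays, and 25 miRNAs lay within 0.1 of that median, so these neighbours are 3 of many.

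No processing turned a member into a 2-fold call. Over 17 alternatives the 5 members had 82 values, of which 0 reached 2-fold, and the largest was 0.86 for miR-24-3p without scaling. These values and the counts of signs below are not all separate checks. The higher floor for bounds repeats the reported values of the members, and the authors' table enters with both signs, as named and with its columns exchanged. The signs, in contrast, moved with the scaling. Unscaled, all 5 were brighter on the HOTTIP-labelled array, from 0.27 for miR-23b-3p to 0.86 for miR-24-3p, as was the median of all miRNAs detected on both arrays at 0.67. miR-23a-3p and miR-27a-3p were each above 0 in 10 and below 0 in 7 of 17 alternatives. miR-24-3p was above 0 in 14 of 17, miR-23b-3p below 0 in 13 of 15 and miR-27b-3p below 0 in 13 of 16. Relative to the median of all miRNAs detected on both arrays under the same setting, miR-23a-3p, miR-27a-3p and miR-24-3p lay between -0.16 and 0.27. Alternatives that only omit or replace the number dividing an array cannot move a value relative to this median. Nor can the higher floor for bounds, so these alternatives are no check of that range. The members near background ranged further and changed sign, miR-23b-3p from -0.60 to 0.60 and miR-27b-3p from -0.34 to 0.34, with the ends of both ranges in the authors' table with its columns exchanged and as named.

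**Figure D3:**
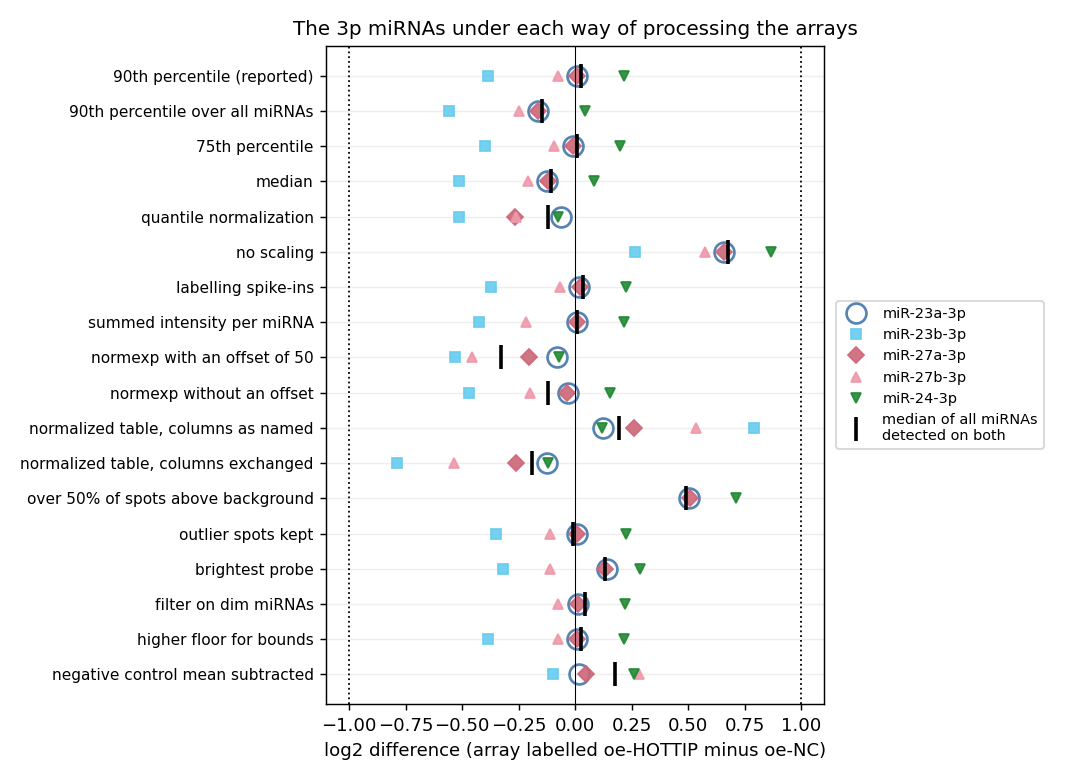
Log2 difference, the HOTTIP-labelled array minus oe-NC (horizontal axis), of the 5 detected members under the reported scaling and 17 alternatives (rows), with the median of all miRNAs detected on both arrays as a black bar and 2-fold as dotted lines. miR-23a-3p, miR-27a-3p and miR-24-3p stay within 0.27 of the bar, miR-23b-3p and miR-27b-3p lie on either side of it at up to 0.60 and 0.34, and none crosses a dotted line.

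In the authors' normalized table, on its log2 scale, miR-23a-3p was listed at 5.66 in the column named for oe-NC and 5.78 in the column named for oe-HOTTIP. miR-27a-3p was at 4.17 and 4.43 and miR-24-3p at 4.34 and 4.46. The members near background differed more there, with miR-23b-3p at 0.69 and 1.48 and miR-27b-3p at 1.10 and 1.64. All 5 thus stood higher, by less than 1 on that scale, where the column is named for oe-HOTTIP, and lower by the same amounts if the columns are exchanged to follow the scanner output. The 3 members of the 5p kind stood at the floor of 1e-06 in both columns.

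Markers of cell types were read beside these values. Of 8 epithelial miRNAs, 5 were detected on the NC-labelled array and 6 on the HOTTIP-labelled array, and their summed intensity was 189% and 146% of the 90th percentile. After scaling, the 5 detected on both ran from -0.65 to 0.17 in log2 difference, with a median of -0.62. Values were -0.65 for miR-200b-3p, -0.64 for miR-200c-3p and -0.62 for miR-31-5p. miR-205-5p, which marks squamous epithelium, was at -0.41 and miR-141-3p at 0.17. miR-429 and miR-203a-3p were detected on neither array. Of 7 miRNAs of blood cells and serum, 5 were detected on each array, with sums of 817% and 598%. Most of that sum was miR-451a, a red cell miRNA, with unscaled intensities of 2233 and 2552 and a scaled log2 difference of -0.46. The scaled differences of the others were -1.75 for miR-486-5p, -0.33 for miR-144-3p, 0.064 for miR-122-5p and 0.69 for miR-223-3p, and miR-142-3p and miR-142-5p were not detected. Of 5 mesenchymal miRNAs only miR-199a-3p was detected, with unscaled intensities of 5.87 and 5.95. The list summed to 0.84% and 0.54%. Sums of the lists include undetected miRNAs, here with negative intensities of -2.25 and -2.57 for miR-143-3p and -2.92 and -3.21 for miR-214-3p. The part of these markers in the members' values was not tested.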

How the data were processed

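The authors deposited the scanner output of 2 one-colour arrays, in which Agilent Feature Extraction gives the intensity of each spot, flags and an intensity summed per miRNA, and a normalized table of log2 values. The version is 11.5.1.1 in the scanner output and 10.10 in the submitters' processing notes. For that table the methods give a normalization to the 90th percentile in GeneSpring. Members, lists and alternatives were chosen with earlier results of these data known, and groups followed titles and treatments.

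Control spots and outlier spots were left out and log2 was taken after scaling. The percentile was taken over miRNAs detected on both arrays because under 50% of all miRNAs were detected, and 2-fold is the threshold of the methods. Where only 1 array detected a miRNA, a lower bound of the fold was taken against its undetected signal or against the dimmest detected miRNA of that array, whichever was brighter. The SE of a difference is the root of the summed squared relative errors of both arrays, converted to log2 units. The miRNAs named were the members, the other strands of their hairpins, the miRNA outside the clusters with a member's seed, and 3 miRNAs of like difference. The marker miRNAs named with their own values were chosen from the marker lists after their values were seen. normexp used median spot signals and local backgrounds. The number of arrays and the signal over background limit precision. The software was limma 3.58.1 in R 4.3.3, and pandas 2.3.3, numpy 2.4.6 and matplotlib 3.10.9 in Python 3.11.15.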

Additional observations from a re-analysis of the deposited data

How the results depend on the processing

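No paired analysis was possible because there is 1 array per group, and for the same reason no array could be left out. The counts of 0 members at least 2-fold lower and 0 at least 2-fold higher held under all 17 alternatives, although the higher floor for bounds could not change them. Without scaling, the median log2 difference of the detected members was 0.66, with 0.66 for miR-23a-3p and for miR-27a-3p, 0.27 for miR-23b-3p, 0.57 for miR-27b-3p and 0.86 for miR-24-3p. When detection required over 50% of the spots well above background, 3 members were detected on each array, miR-23b-3p and miR-27b-3p were not, and the 90th percentile was taken over 155 miRNAs. The median was then 0.51, with 0.50 for miR-23a-3p, 0.51 for miR-27a-3p and 0.71 for miR-24-3p. In the normalized table with its columns as named, miR-23b-3p was at 0.79, miR-27b-3p at 0.53 and the pair of miR-23a-3p minus miR-23b-3p at -0.67, and with exchanged columns miR-24-3p was at -0.12. The table as named also turned the bound of miR-23c to 2.86-fold higher. The bound was 1.74-fold lower without scaling, 1.56-fold and 1.92-fold with normexp with and without an offset of 50, and 1.62-fold from the brightest probe. The largest of these lower bounds over the alternatives was 6.83-fold, with the negative control mean subtracted. The filter on dim miRNAs left out miR-23b-3p and miR-23c, and the rule of over 50% of the spots left out miR-23c as well. The cause was not tested where the change does not follow from the smaller set or the exchanged columns.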
